A study of Mus musculus with 9 samples.

Results

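The 36 genes described here encode plasma proteins that hepatocytes secrete. They were taken by symbol as a list of carriers, fibrinogen chains, clotting factors, protease inhibitors, complement components and proteins of the insulin-like growth factor (IGF) system, and all 36 were found among the 21878 symbols of the deposited count table. Values were read from 2 RNA sequencing libraries, replicates 1 and 2 of the 3 WT-GFP samples. The starting cells were primary hepatocytes of wild-type C57BL/6 mice, turned into liver progenitors with HGF, EGF, Y-27632, A8301, CHIR99021, S1P and LPA. They then received a GFP lentivirus and were matured again over 3 weeks with OSM, DAPT and SB431542, before 24 hours in copper chloride. The protocols give a copper dose of 100 µM, while the treatment field gives that figure in mM. The protocols also name ATP7B as the vector of the wild-type cells, and the GFP of the sample titles is followed here. The study's other groups, KO-ATP7B and KO-GFP, are ATP7B-/- cells of the same strain and copper treatment with an ATP7B or a GFP lentivirus, 3 samples each. The count columns of those groups and of the third WT-GFP sample are numbered without a name and could not be tied to samples, so they were not used here. There is therefore no comparison between genotypes or vectors, and there are no cells without copper and no liver tissue to set the levels against. No label says whether the 2 libraries came from separate mice or cultures, so the spread between them may be technical.

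Hepatocytes make most of the protein dissolved in blood plasma. Each of these proteins enters the endoplasmic reticulum with a signal peptide, is folded and modified there, and leaves by the secretory pathway. Their genes are typically controlled by short promoters that bind liver-enriched transcription factors such as HNF1, HNF4, C/EBP and FOXA proteins, and a fall in their messenger RNA is a usual sign that cultured hepatocytes are losing their mature state.

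The plasma protein genes spanned a very wide range of levels, with a few abundant genes and others close to the limit of detection. Levels are given as the deposited FPKM (counts scaled to gene length and library total), as the mean ± SD over the 2 libraries (n = 2 throughout). Of the 36 genes, 17 were at 10 FPKM or more, 9 lay between 1 and 10 FPKM and 10 were below 1 FPKM. Among all symbols 27.1% reached 10 FPKM and 51.2% were below 1 FPKM, and among the 15545 symbols with a count these shares were 38.1% and 31.3%. The median of the 36 genes was 7.77 FPKM, with 6.73 FPKM in replicate 1 and 8.14 FPKM in replicate 2, against a median of 0.782 FPKM over all symbols and 5.66 FPKM over those with a count. Without 5 members that belong to families of gene copies (Serpina1a, Serpina1b, Serpina1d, Serpina3k and C4b) the median was 3.41 FPKM, with Cfb and Kng1, which also share transcript sequence with other genes, still included.

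A handful of genes supplied most of the counts. Jointly the 36 genes took up 0.613% of replicate 1 (Wilson 95% limits 0.609 and 0.616%) and 0.588% of replicate 2 (limits 0.584 and 0.591%). Of these counts Alb gave 32.1% and 31.8% in replicates 1 and 2, the 5 genes with the highest FPKM gave 72.0% in each, and the 10 highest gave 94.1% and 93.6%. Library totals were 18532457 and 17821682 counts, and a count of 0 would allow up to 3 counts, which is 0.162 and 0.168 CPM (counts scaled to the library total). Each of the 36 genes had at least 1 count in each library, and 32 had a mean of at least 10 counts. These limits and floors describe counting error alone, because amplified reads were not traced to single molecules. In such bulk libraries fewer cells expressing a gene and less RNA per cell cannot be told apart.

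**Figure D1:**
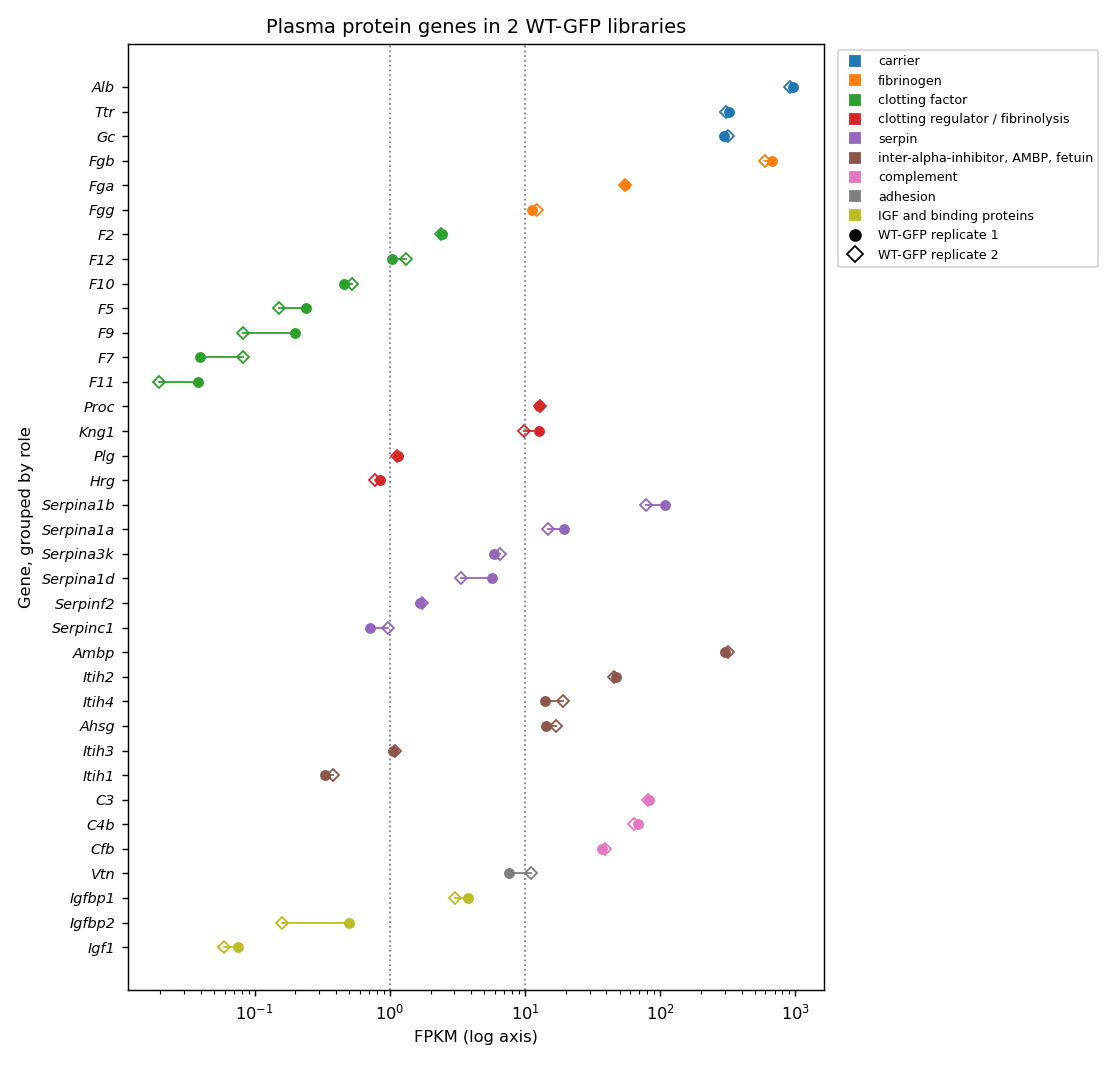
FPKM of each of the 36 plasma protein genes on a log axis, grouped by role, with filled circles for WT-GFP replicate 1, open diamonds for replicate 2 and dotted lines at 1 and 10 FPKM. The carriers sit above 290 FPKM, while F10, F5, F9, F7 and F11 lie below 1 FPKM in both libraries.

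Markers of the mature hepatocyte were present in part. Of 10 hepatocyte markers, 5 reached 10 FPKM (Alb, Apoa1, Ttr, Apob and Hnf4a). Tat at 0.878 ± 0.107 FPKM, Tdo2 at 0.3505 ± 0.204 FPKM and the asialoglycoprotein receptor gene Asgr1 at 0.0708 ± 0.0368 FPKM were below 1. Of 10 biliary or progenitor markers 6 reached 10 FPKM, led by Cd24a, Spp1 and Krt19, and the list held 0.284% and 0.276% of the counts. Other cell types that secrete some of these proteins left little trace. All 6 platelet and megakaryocyte markers were below 1 FPKM and 4 of them (Pf4, Ppbp, Gp9 and Gp1ba) had no count. In the macrophage list 8 of 10 were below 1 FPKM and 6 were at 0, including Adgre1, Clec4f and C1qa, although Cd68 was at 17.1 ± 3.34 FPKM. Of the endothelial markers 9 of 10 were below 1 FPKM, with Cdh5, Stab2, Lyve1 and Clec4g at 0, and of the stellate cell and fibroblast markers 9 of 10, with Pdgfrb, Acta2 and Lum at 0. Of 8 mesothelial markers 3 reached 10 FPKM, led by Msln at 1159 ± 20.7 FPKM and with Krt19 also on the biliary list, and Lrrn4 and Muc16 were at 0. The part of mesothelial-type or biliary-type cells in the levels below was not tested.

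The carrier proteins were the most abundant role group. Alb encodes serum albumin, the main carrier and osmotic protein of plasma, and lies on chromosome 5 at 90460897 to 90476602, plus strand, protein-coding (GRCm38, GENCODE M21). It was at 953 FPKM in replicate 1 and 906 FPKM in replicate 2, rank 26 of all symbols. Ttr, transthyretin, which carries thyroxine and retinol-binding protein, had 323 and 305 FPKM. Gc, the vitamin D-binding protein (minus strand of chromosome 5, 89417522 to 89457898, protein-coding), had 294 and 317 FPKM. Alb was thus 3.24-fold and 2.86-fold above Gc in replicates 1 and 2, whereas the ranges of Ttr and Gc over the libraries overlapped. Ambp, described with the inhibitors below, overlapped with both at 299.9 and 314 FPKM, so the order of Ttr, Ambp and Gc is not resolved. Albumin was also well above Afp, the fetal counterpart of albumin, at 12.9 ± 0.519 FPKM, by a factor of 71.7 in replicate 1 (95% exact counting interval 65.7 to 78.4) and 72.1 in replicate 2 (65.8 to 79.2).

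The promoter of Alb is shown because this gene leads the list. It runs from 250 bases before to 50 bases after the start (RefSeq, GRCm38.p6, chr5:90460620-90460919, plus strand), and capitals mark, in order, a match to the FOXA motif, one to the C/EBP motif and one to the HNF1 half-site, the last of them 32 to 27 bases before the start.
Alb: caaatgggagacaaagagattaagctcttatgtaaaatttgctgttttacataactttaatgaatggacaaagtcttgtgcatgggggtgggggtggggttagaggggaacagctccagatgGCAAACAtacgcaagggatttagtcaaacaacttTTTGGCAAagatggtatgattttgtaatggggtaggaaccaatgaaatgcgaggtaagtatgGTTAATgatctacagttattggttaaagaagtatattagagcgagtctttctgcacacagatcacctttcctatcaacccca

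The 3 fibrinogen chains, which are assembled in equal numbers into the clot-forming protein, differed sharply in messenger level although their genes are neighbours. Fgb, the beta chain (chromosome 3, 83040141 to 83049863, minus strand, protein-coding), had 669 and 597 FPKM in replicates 1 and 2 and was second among the members. Fga, the alpha chain (chromosome 3, 83026076 to 83033627, plus strand, protein-coding), had 55.1 and 54.4 FPKM. Fgg, the gamma chain (chromosome 3, 83007724 to 83015049, plus strand, protein-coding), had 11.3 and 12.2 FPKM, from 443 and 459 counts. The 3 ranges lay far apart: Fgb was 59.1-fold above Fgg in replicate 1 (95% exact counting interval 53.8 to 65.1) and 49.0-fold in replicate 2 (44.6 to 53.8). Fgb was 12.1-fold and 10.98-fold above Fga, and Fga was 4.87-fold and 4.46-fold above Fgg. The sizes depend on the gene length used. The deposited values imply 1705 bases for Fgb and 4297 for Fga, where the GENCODE exons span 3810 and 3010 bases. With the GENCODE exon lengths Fgb came to 283 FPKM, Fga to 78.1 FPKM and Fgg to 11.9 FPKM, so that Fgb was 3.63-fold above Fga and 23.9-fold above Fgg, in the same order.

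The promoters of the 3 chains are shown because their genes lie within 42.1 kb of each other and differ widely in level (RefSeq, GRCm38.p6, 250 bases before to 50 after the start). Fgb is at chr3:83049814-83050113 on the minus strand, Fga at chr3:83025903-83026202 and Fgg at chr3:83007474-83007773, both on the plus strand. Capitals mark matches to the motifs described further on. In Fgb these are, in order, the FOXA, C/EBP and HNF1 half-site motifs. In Fga they are the FOXA, C/EBP, loose HNF4 and HNF1 half-site motifs, and in Fgg a single match to the metal response core.
Fgb: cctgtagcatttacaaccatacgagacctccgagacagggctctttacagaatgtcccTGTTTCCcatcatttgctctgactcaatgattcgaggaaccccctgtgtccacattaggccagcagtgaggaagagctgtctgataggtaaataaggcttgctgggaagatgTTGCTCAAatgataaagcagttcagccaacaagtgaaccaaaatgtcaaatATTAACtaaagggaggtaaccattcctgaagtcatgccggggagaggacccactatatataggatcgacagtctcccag
Fga: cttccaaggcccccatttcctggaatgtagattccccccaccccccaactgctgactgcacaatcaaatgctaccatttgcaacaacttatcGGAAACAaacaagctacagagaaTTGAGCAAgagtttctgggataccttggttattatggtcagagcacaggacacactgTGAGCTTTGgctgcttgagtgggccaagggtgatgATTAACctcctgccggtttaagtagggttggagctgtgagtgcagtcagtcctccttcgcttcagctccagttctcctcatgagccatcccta
Fgg: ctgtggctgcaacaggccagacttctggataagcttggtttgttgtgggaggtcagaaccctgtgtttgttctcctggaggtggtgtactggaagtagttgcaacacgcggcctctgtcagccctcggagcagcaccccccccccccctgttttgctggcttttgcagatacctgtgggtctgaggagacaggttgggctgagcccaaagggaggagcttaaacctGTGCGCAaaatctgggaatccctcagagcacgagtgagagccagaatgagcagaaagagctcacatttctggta

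Clotting factor genes were the lowest large group, with 0 of 7 at 10 FPKM and a median of 0.195 FPKM. F2, prothrombin (minus strand of chromosome 2, 91625320 to 91636414, protein-coding), had 2.44 and 2.39 FPKM in replicates 1 and 2, from 104 and 98 counts. F12, which starts the contact pathway, was at 1.04 and 1.31 FPKM, and F10, whose active form cleaves prothrombin, at 0.461 and 0.521 FPKM. F5, the cofactor of factor X, was at 0.240 and 0.151 FPKM from 33 and 20 counts. By the deposited values these 4 genes had the same order in both libraries, but the order of F2 and F12 depends on the gene length used. With GENCODE exon lengths F2 came to 1.22 and 1.20 FPKM in replicates 1 and 2 and F12 to 1.05 and 1.32 FPKM, so that F12 was the higher in replicate 2. The remaining 3 were close to the limit of detection. F9, the factor missing in hemophilia B, had 10 and 4 counts, F7, which pairs with tissue factor, had 2 and 4 counts, and F11, which activates factor IX, had 2 and 1 counts. Their FPKM intervals in replicate 1 were 0.0946 to 0.363 for F9, 0.00476 to 0.142 for F7 and 0.0046 to 0.137 for F11 (95% exact). The 3 intervals overlapped. F7 had the same count as F11 in replicate 1 and as F9 in replicate 2, so it could not be placed against either at this depth. F9 was above F11 in both libraries, a difference that rests on few counts and was not tested.

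Proc was higher than the 4 vitamin K-dependent clotting factor genes of the list. Such proteins (here F2, F7, F9, F10 and Proc) need gamma-carboxylation of glutamates before they bind calcium and membranes. Proc, protein C, an anticoagulant that inactivates factors V and VIII, had 12.6 and 12.996 FPKM. It exceeded F2 by a factor of 5.18 in replicate 1 (95% exact counting interval 4.18 to 6.46) and 5.45 in replicate 2 (4.37 to 6.84), and by 8.595 with GENCODE exon lengths. The carboxylase gene Ggcx was at 12.6 ± 1.56 FPKM and Vkorc1, the warfarin-sensitive reductase that recycles vitamin K, at 26.5 ± 3.17 FPKM. The other regulators were uneven. Kng1, the kininogen that yields bradykinin, was at 12.6 and 9.75 FPKM, Plg, plasminogen, at 1.16 and 1.12 FPKM, and Hrg, the histidine-rich glycoprotein that binds heparin and plasminogen, at 0.839 and 0.775 FPKM. Kng1 was 10.9-fold and 8.70-fold above Plg. Of its 50-base words 17.2% are shared with Kng2, and 10.2% of those of Plg with Slc22a3, so both levels carry some uncertainty.

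Among the serpins, which trap proteases, Serpina1b was the highest and the antithrombin gene the lowest. Serpina1a, Serpina1b and Serpina1d are mouse copies of alpha-1-antitrypsin, the inhibitor of neutrophil elastase, and lie side by side on chromosome 12. Serpina1b (103728156 to 103830373, minus strand, protein-coding) had 108 and 78.8 FPKM in replicates 1 and 2, Serpina1a (103853589 to 103863562, minus strand) had 19.3 and 14.9 FPKM, and Serpina1d (103763594 to 103773592, minus strand) had 5.69 and 3.35 FPKM. The ranges of the 3 copies did not overlap. Their split is uncertain, because 57.6% of the 50-base words in Serpina1a transcripts, 50.9% in Serpina1d and 29.5% in Serpina1b also occur in transcripts of other genes, and the annotated span of Serpina1b encloses Serpina1d. Serpina3k, a kallistatin-type serpin, was at 5.85 and 6.52 FPKM, with 14.0% of its words shared. Serpinf2, alpha-2-antiplasmin, which blocks plasmin, was at 1.67 and 1.72 FPKM. Serpinc1, antithrombin, the inhibitor of thrombin and factor Xa, had 29 and 38 counts, at 0.708 and 0.964 FPKM. With GENCODE exon lengths, in which Serpinc1 has 8546 bases in place of 2211, its mean was 0.216 FPKM, and 33.6% of its words occur in other genes, chiefly Zbtb37.

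The heavy chain genes of the inter-alpha-inhibitor family differed widely, with Itih2 the highest, Itih4 next, and Itih3 and Itih1 low. Ambp encodes a precursor that is cut into alpha-1-microglobulin and bikunin, the light chain of inter-alpha-inhibitor. Itih1, Itih2 and Itih3 encode heavy chains that are transferred to hyaluronan. Ambp (minus strand of chromosome 4, 63143275 to 63154799, protein-coding) had 299.9 and 314 FPKM. Itih2 (minus strand of chromosome 2, 10094593 to 10131396, protein-coding) had 47.0 and 45.8 FPKM. Itih1, the other heavy chain of the classical complex, was at 0.332 and 0.381 FPKM from 19 and 21 counts. Itih2 was therefore 142-fold above Itih1 in replicate 1 (95% exact counting interval 90.6 to 236) and 120-fold in replicate 2 (78.3 to 194), wide intervals that reflect the few Itih1 counts. Itih4 was at 14.1 and 19.0 FPKM and Itih3 at 1.05 and 1.09 FPKM. Ahsg, fetuin-A, which keeps calcium phosphate in solution, was at 14.4 and 16.9 FPKM. Gc exceeded Ahsg by a factor of 20.5 and 18.8 in replicates 1 and 2.

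All 3 complement genes were well expressed. C3, the central component (minus strand of chromosome 17, 57203970 to 57228136, protein-coding), had 82.2 and 80.6 FPKM. C4b, of the classical and lectin pathways (chromosome 17, 34728380 to 34743882, minus strand), was at 68.0 and 64.0 FPKM, with 34.6% of its 50-base words shared with C4a. Cfb, factor B of the alternative pathway (chromosome 17, 34856374 to 34862518, minus strand), was at 37.0 and 39.2 FPKM, and 73.0% of its words occur in the overlapping gene Gm20547. The order C3, C4b, Cfb was the same in both libraries. Vtn, vitronectin, an adhesion protein of plasma and matrix, was at 7.61 and 11.1 FPKM. Vtn and Kng1 lay on either side of 10 FPKM in the 2 libraries. By their means of 11.2 ± 2.002 FPKM for Kng1 and 9.35 ± 2.47 FPKM for Vtn, the first was counted as reaching it.

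The IGF members were low. Igf1, the growth factor that liver releases under growth hormone, had 12 and 9 counts, at 0.0758 and 0.0591 FPKM. Igfbp1, a binding protein that insulin represses, was at 3.798 and 3.03 FPKM, and Igfbp2 at 0.495 and 0.158 FPKM from 13 and 4 counts. Of 19 other genes of the IGF axis, 6 reached 10 FPKM and 5 were below 1. The highest were Igfbp7 at 109 ± 9.31 FPKM, Igfbp3 at 40.4 ± 0.998 FPKM and Igf2r, the receptor that clears IGF2, at 36.4 ± 0.423 FPKM.

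In most neighbourhoods of these genes the members differed widely in level. Within 500 kb of another member lay 17 of the 36 genes, in 6 neighbourhoods. The highest gene of a neighbourhood exceeded the lowest by 53.8-fold for the fibrinogen chains within 42.1 kb, 46.5-fold for Itih4, Itih3 and Itih1 within 56.8 kb, and 20.6-fold for the serpins of chromosome 12 within 618 kb. It did so by 19.4-fold for Ahsg, Hrg and Kng1 on chromosome 16 and by 8.11-fold for F10 and F7 on chromosome 8. C4b and Cfb, 134 kb from end to end, differed by 1.73-fold. With GENCODE exon lengths the Itih genes differed most, by 42.5-fold, against 23.9-fold for the fibrinogen chains and 11.8-fold for the serpins. The F10 over F7 ratio rests on 2 and 4 counts of F7, and its interval in replicate 1 ran from 2.90 to 103 (95% exact).

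**Figure D2:**
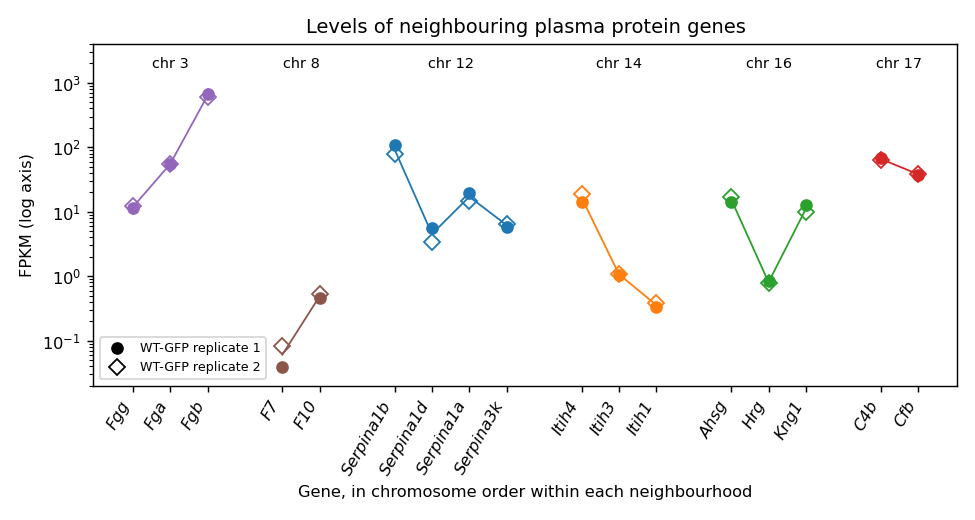
FPKM on a log axis of the 17 plasma protein genes that lie within 500 kb of another, in chromosome order, with circles for WT-GFP replicate 1, diamonds for replicate 2 and lines through the means. The fibrinogen genes climb from Fgg to Fgb, and Hrg lies below Ahsg and Kng1, the plotted genes on either side of it.

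The promoters of these genes often held short matches to motifs of liver factors. Promoter windows of 300 bases were found in RefSeq for 29 of the 36 genes and were searched on both strands, as were all 32851 windows of the table. The HNF1 half-site GTTAAT was present in 11 of 29 genes (37.9%), against 7.10% of all windows. The C/EBP motif TTGCNNAA occurred in 13 of 29 (44.8%), against 10.8%, and the FOXA motif TGTTTNC in 12 of 29 (41.4%), against 20.5%. The loose HNF4 motif CAAAGNNCA was in 5 of 29 (17.2%), against 6.36%, and its strict form CAAAGTCCA in 0 of 29, against 0.475%. The TATA box TATAAA was in 5 of 29 (17.2%), against 13.6%, and the metal response core TGCGCNC in 2 of 29 (6.90%), against 15.4%. The full HNF1 site, which is the half-site followed by any base and ATTAA, was in Gc alone, against 0.0609% of all windows, and overlaps the half-site there. Serpina1a, Serpina1b and Serpina1d are copies of one another and do not count as separate cases. A match describes letters in a window and does not show that a factor binds.

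The HNF1 half-site also lay close to the RefSeq start in these genes. For Alb and Fga that start differs from the GENCODE start, so the distances depend on the annotation. The half-site fell within the last 60 bases before the RefSeq start in 9 of 29 genes (31%), against 1.38% of all windows, a window chosen after the positions had been seen. These were 9 of the 11 genes that held it (Alb, Fga, Fgb, Gc, Igfbp1, Itih1, Serpina1a, Serpina1b and Serpina1d). Among all windows with the half-site 19.4% had it there. The half-site was present in 6 of 12 genes at 10 FPKM or more and in 1 of 10 genes below 1 FPKM. Those 6 include the copies Serpina1a and Serpina1b. The C/EBP motif was in 8 of 12 and 4 of 10, and the FOXA motif in 7 of 12 and 2 of 10. The TATA box was in 2 of 12 and 1 of 10, and the metal response core in 2 of 12 and 0 of 10. The loose HNF4 motif ran the other way, in 1 of 12 and 4 of 10 (F7, F9, Igf1 and Serpinc1). A window was found for only 12 of the 17 genes at 10 FPKM or more, but for all 10 below 1 FPKM. The 2 gene sets are small and were compared as a description, with no test. Of the factors themselves Hnf4a was at 50.4 ± 0.351 FPKM, Foxa2 at 45.2 ± 4.92 FPKM and Cebpb at 59.3 ± 1.05 FPKM. Cebpa, the main C/EBP protein of mature hepatocytes, was at 1.19 ± 0.786 FPKM.

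**Figure D3:**
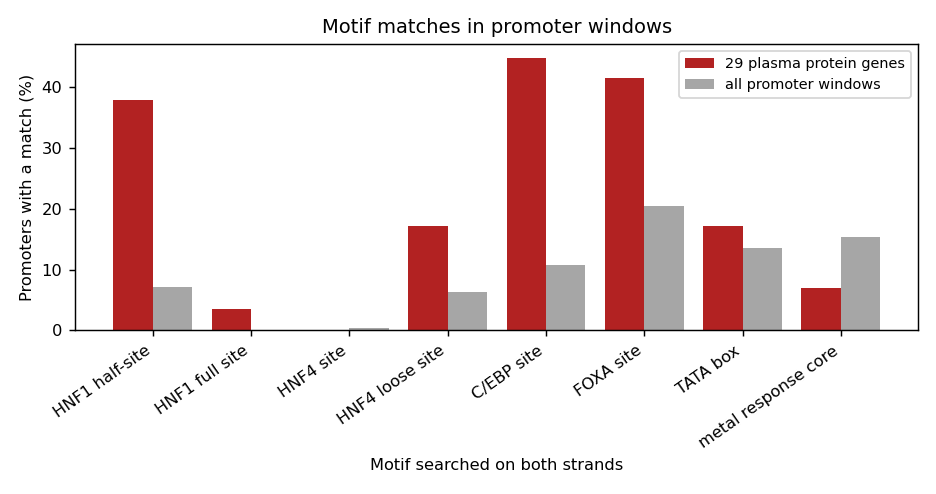
Share of promoter windows with a match to each of 8 motifs, in percent, for the 29 plasma protein genes with a window (red) and for all windows (grey). The HNF1 half-site, C/EBP and FOXA bars of the plasma protein genes stand at 37.9%, 44.8% and 41.4%, above those of all windows.

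Counts of 12 plasma protein genes departed from those that the totals of both libraries would give, beyond counting error. The counts of each gene were compared by a two-sided exact binomial test given the library totals, with Benjamini-Hochberg adjustment over the 12302 genes that averaged 10 counts or more. The test compares 2 libraries of 1 group and not conditions. It called 12 of the 32 members tested, 4 higher and 8 lower in replicate 2, where 14.8% of all genes tested were called, 8.38% higher and 6.38% lower. Abundant genes pass such a test more readily. With at least 1000 counts 7 of 11 members were called, against 31.4% of all such genes. The largest differences were those of Serpina1d (log2 ratio of replicate 2 to replicate 1 of -0.76, adjusted p = 0.00131, exact binomial test), Serpina1b (-0.45, adjusted p = 1.92e-24) and Serpina1a (-0.37, adjusted p = 0.000203) among the lower. Summed over the copies a to e, alpha-1-antitrypsin stood at 214 CPM in replicate 1 and 160 CPM in replicate 2, a log2 ratio of -0.42. The sum does not depend on how counted reads were split between the copies. Because the read counter is not known, shared reads may have been left out, and the sum would not restore them.

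Among the higher, Vtn had 246 and 345 counts in replicates 1 and 2, a log2 ratio of 0.54 (exact test, adjusted p = 0.000154). Itih4 had 829 and 1074 counts, a ratio of 0.43 on that scale (exact test, adjusted p = 8.06e-09), and Gc stood at 0.11 (adjusted p = 4.65e-06). Kng1 was lower, at -0.37 (exact test, adjusted p = 7.53e-05). The other 5 called genes, Alb, Fgb, Ttr, C4b and Ambp, had log2 ratios between -0.16 and 0.07, and Ambp was no longer called with TMM scaling (adjusted p = 0.0936). Itih4 and Vtn were thus higher, and the Serpina1 copies lower, in the same pair of libraries. Of the fibrinogen chains Fgb was called at -0.16 (exact test, adjusted p = 6.76e-27), while Fga at -0.02 and Fgg at 0.11 were not (exact test, adjusted p = 0.779 and 0.536).

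**Figure D4:**
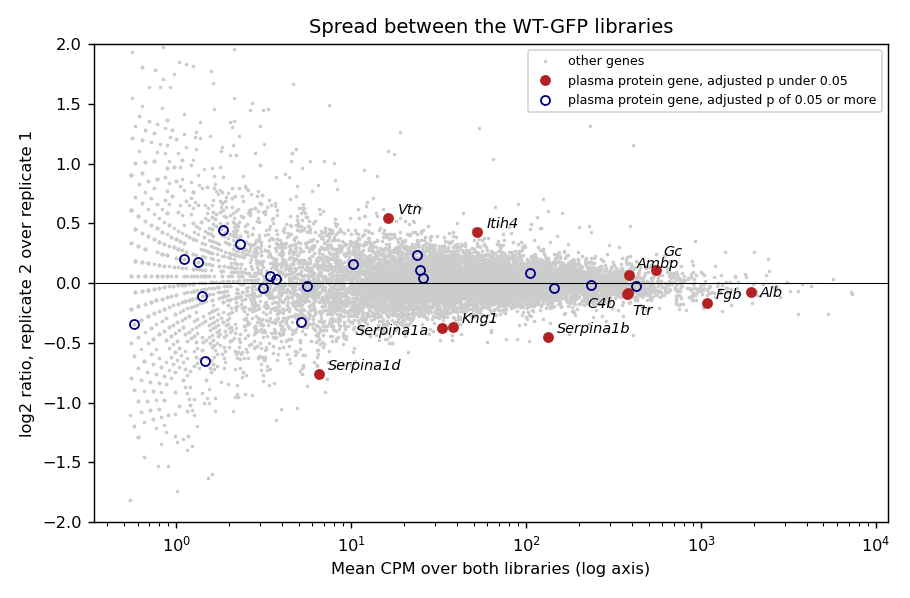
Log2 ratio of replicate 2 to replicate 1 against mean CPM (log axis) for the 12302 genes averaging 10 counts or more, with plasma protein genes in red where the adjusted p is under 0.05 and as open circles otherwise. Serpina1d lies lowest and Vtn highest among the named genes, and 15 of the plotted genes fall beyond the axis limits of 2 in either direction.

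Beside other plasma proteins outside the list, the 36 genes were not alone in their wide range. Of 62 further plasma protein genes 21 reached 10 FPKM and 26 were below 1 FPKM, with a median of 1.25 FPKM. Their highest members were the heme carrier gene Hpx at 527 ± 6.71 FPKM, the iron carrier gene Trf at 482 ± 43.6 FPKM and Rbp4, the retinol carrier that travels with transthyretin, at 335 ± 26.9 FPKM. The secretory machinery was expressed throughout. In a list of 25 genes of folding, transport, cleavage and carboxylation 23 reached 10 FPKM and 0 were below 1, with a median of 38.4 FPKM, and the highest were the chaperone and isomerase genes Calr, P4hb and Hspa5. Of 22 transcription factor genes of hepatocytes 9 reached 10 FPKM, with a median of 7.202 FPKM, led by Xbp1 at 60.4 ± 1.05 FPKM.

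**Figure D5:**
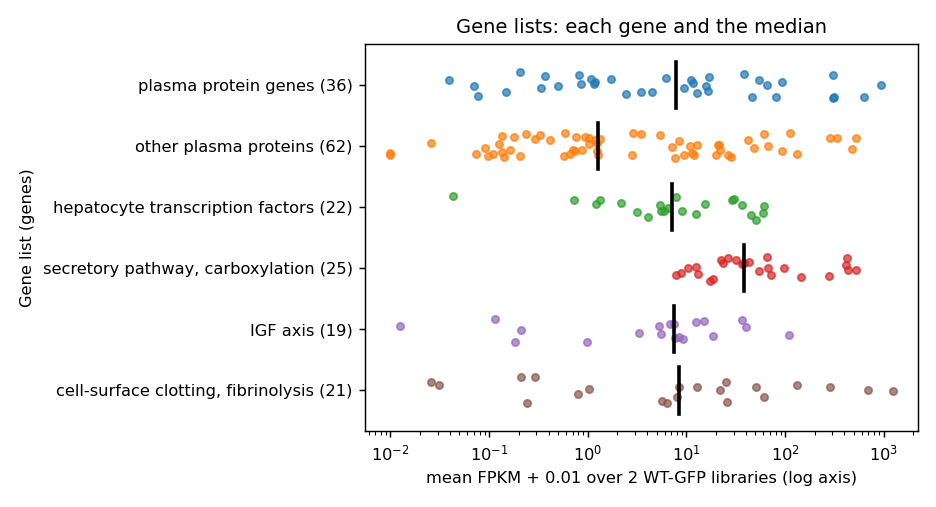
Mean FPKM over the 2 WT-GFP libraries, plotted as FPKM + 0.01 on a log axis, for each gene of 6 lists, with a black bar at each list's median. The plasma protein genes spread from F11 at 0.0288 FPKM to Alb at 929.6 FPKM with a median of 7.77 FPKM, whereas none of the secretory pathway genes is below 1 FPKM and their median is 38.4 FPKM.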

How the data were processed

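Per the labels' protocols, stranded mRNA libraries were sequenced. Raw counts were deposited by the authors per gene symbol for the series, and the authors' FPKM values for 2 libraries. HISAT2 2.2.1.0 and 2 builds, mm10 and hg38, appear per the submitters' processing notes, with no role stated. No source used here gives the read counter, its annotation or its strand setting. The lengths implied by counts and deposited FPKM were whole bases within 0.01 bp for 100% of values above 0, so the FPKM restate the counts with no correction for composition. Count columns were used where a sample has a file of its own with the same number, which left 7 columns unused, and the edgeR comparisons planned between groups were not run.

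Members and gene lists were chosen with earlier results of these data known. All 36 members are named, and of each other list the 3 highest. Foxa2 and Cebpa are named as well, because the plan allowed any gene of the transcription factor list. Ggcx, Vkorc1, Afp, F3, Plau and single marker genes were picked after their values were seen. Libraries were compared by an exact binomial test with Benjamini-Hochberg adjustment at 0.05, with 0.5 added to counts for log2 ratios. The test was tried on simulated counts that varied by counting error alone. That trial could not show how the test behaves with further spread between libraries. TMM factors came from edgeR 4.0.16 and size factors from DESeq2 1.42.0. Intervals are 95%, Wilson for joint shares and exact Clopper-Pearson otherwise. Positions and exon lengths came from GENCODE M21 (GRCm38), which held 20654 of 21878 symbols. Transcripts of that release gave the share of 50-base words found in other genes on either strand. Promoters came from RefSeq. Protein identities, which had been planned, were not computed.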

Additional observations from a re-analysis of the deposited data

How the results depend on the processing

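The count of plasma protein genes at 10 FPKM or more was 17 with each library alone and with both kinds of GENCODE length, 14 of 31 without the 5 members of copy families, 19 at 5 FPKM and 11 at 20 FPKM. The median of 7.77 FPKM was 6.50 with GENCODE exon-union lengths, 3.41 without those 5, 11.5 over members with a mean of at least 10 counts and 20.2 in TPM, which is another unit. It ran from 6.73 to 8.14 when either library was left out. The joint share of counts, 0.6004% as a mean, was 0.630% when the 10 most abundant genes were taken out of the total and 0.409% without Alb, and it ran from 0.588% to 0.613% when either library was left out. Of the 1816 genes called between the libraries, 188 also had a log2 ratio of at least 0.5, and the other settings gave 1680 without a minimum count, 1810 at 50 counts, 1805 with TMM factors, 1806 with DESeq2 size factors and 1386 at 1000 counts, the last added after seeing the data. Serpina1d, Serpina1b and Serpina1a, the 3 largest among the lower, and Vtn, Itih4 and Gc, the 3 largest among the higher, kept their direction and stayed under 0.05 in all 24 alternative fits. No paired analysis was possible because the usable libraries, 2 in number, belong to the WT-GFP group alone. For F7, F9, F11 and Igfbp2, with means under 10 counts, depth limits the level, and they entered no test except the one without a minimum.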

Other observations

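Genes that act on clotting at the cell surface, which are not among the 36, were in part far higher than the clotting factors themselves. Of 21 such genes 10 reached 10 FPKM and 6 were below 1 FPKM, with a median of 8.44 FPKM. Anxa2 and S100a10, whose proteins form a complex that binds plasminogen and its activator, were at 1250.0 ± 4.84 FPKM and 688 ± 0.727 FPKM. Plaur, the urokinase receptor, was at 288 ± 12.6 FPKM. Among members picked after their values were seen, F3 (tissue factor) was at 25.3 ± 2.22 FPKM and Plau (urokinase) at 0.779 ± 0.284 FPKM.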
